A study of Mus musculus with 6 samples.

Results

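The genes described here are 10 genes of fatty acid synthesis and desaturation, chosen by name: *Acly*, *Acaca*, *Fasn*, *Elovl6*, *Scd1*, *Scd2*, *Fads1*, *Fads2*, *Acsl3* and *Srebf1*. They are 10 of the 47643 Ensembl gene IDs counted, and all 10 had reads in every library and were among the 15792 genes tested. The RNA came from mSGOs, mouse organoids of the submandibular salivary gland that dissociated gland cells form in a Matrigel culture, and the donors were C57BL/6 mice aged 8 to 12 weeks, female per the study's methods. The day 5 group and the day 7 group each held 3 libraries of untreated, non-irradiated organoids, and mice 1, 2 and 3 each gave 1 library per day. Both groups were kept in the same WRY medium, which holds EGF, FGF2, N2, insulin, dexamethasone, Y27632 and medium conditioned with R-spondin1 and Wnt3a. Insulin, which is known to raise lipogenic transcription, was thus present at both days. The comparison asked how the RNA levels of these genes differed between the younger and the older organoids.

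Cells build fatty acids in the cytosol. Citrate lyase turns exported citrate into acetyl-CoA, acetyl-CoA carboxylase makes malonyl-CoA from it in the committed step, and fatty acid synthase joins these units into palmitate with electrons from NADPH. Palmitate is then lengthened by elongases and given double bonds by desaturases in the endoplasmic reticulum, and is activated with coenzyme A before it enters membranes and storage lipids. Transcription of most of these enzymes is raised by SREBP-1c, a product of *Srebf1* that is cleaved from its membrane-bound precursor. In glands, these lipids build the membranes of dividing and secreting cells.

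Levels are given as counts per 1000000 (CPM) of each library's total after TMM scaling, which corrects the totals for the make-up of the RNA. The 3′ end of each transcript was read, so the counts were not divided by gene length. The 6 libraries held 1918198 to 2837397 counts in genes, and 3 counts, taken here as the floor of detection, were 1.06 to 1.56 CPM of these totals. Reads assigned to no gene made up 13.7% to 14.4% of the day 5 libraries and 9.12% to 9.74% of the day 7 libraries. Over the 6174 genes that averaged at least 20 CPM, the median coefficient of variation was 9.82% at day 5 and 21.6% at day 7, and for the 10 fatty acid genes it was 6.99% and 27.2%. The 10 include *Srebf1* and *Fads2*, which averaged below 20 CPM and varied most at day 7 (68.1% and 70.4%). The 7 markers of salivary duct epithelium were all detected, at a summed 14525 to 18808 CPM of library totals at day 5 and 11588 to 14890 at day 7. Of these 7, *Krt8* alone passed the threshold given below, lower at day 7 (log2 fold change -0.65, adjusted p = 0.0374, edgeR). Of 8 adipocyte markers, 6 had no read in any library, *Adipoq* and *Plin1* among them, and the list's sum of 172 to 230 at day 5 and 272 to 1722 at day 7 came from *Fabp4* and *Lipe*. Both were higher at day 7, *Lipe* with a log2 fold change of 1.42 (adjusted p = 0.00481, edgeR). Of 8 sebocyte markers, 4 had no read, and the list summed to between 7.82 and 16.3 in the day 5 libraries and between 5.99 and 8.67 in the day 7 libraries, with *Krt79* lower at day 7 (log2 fold change -2.20, adjusted p = 0.00288, edgeR) and *Fa2h* higher (0, 0 and 1 reads at day 5 and 18, 13 and 4 at day 7). The summed markers of macrophages, endothelium and fibroblasts stayed at or below 6.50 in each library, and of their members *Cd68* passed, higher at day 7 (4, 2 and 1 reads at day 5 and 8, 17 and 14 at day 7, adjusted p = 0.0151, edgeR). The cycling markers *Mki67* and *Top2a* together held 1013 to 1169 CPM in the day 5 libraries and 372 to 543 CPM in the day 7 libraries. The part of these differences between the days in the results below was not tested. In bulk RNA, fewer cells of a type and less RNA per cell cannot be told apart.

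Of the 10 genes, 4 passed the threshold, an adjusted p below 0.05 by edgeR's quasi-likelihood test and an absolute log2 fold change above 0.6. *Elovl6*, *Acaca* and *Acly* were lower at day 7 and *Scd1* was higher. Of all genes tested, 12.0% passed, 7.22% higher and 4.82% lower at day 7. The days did not overlap for 5 of the 10 genes, against 30.9% of all genes tested, and for *Fads1*, 1 of the 5, they were apart by only 71.34 against 71.36 CPM. Their median log2 fold change was -0.35, against -0.01 over all genes tested. *Elovl6* held its call in each of the 6 fits that left out 1 library, and the other 3 did not. It was also the gene of the 10 that passed edgeR's glmTreat, which tests against the minimum change itself. *Fasn*, *Scd2*, *Acsl3*, *Fads1*, *Fads2* and *Srebf1* did not pass, and their intervals are given with their values.

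**Figure D1:**
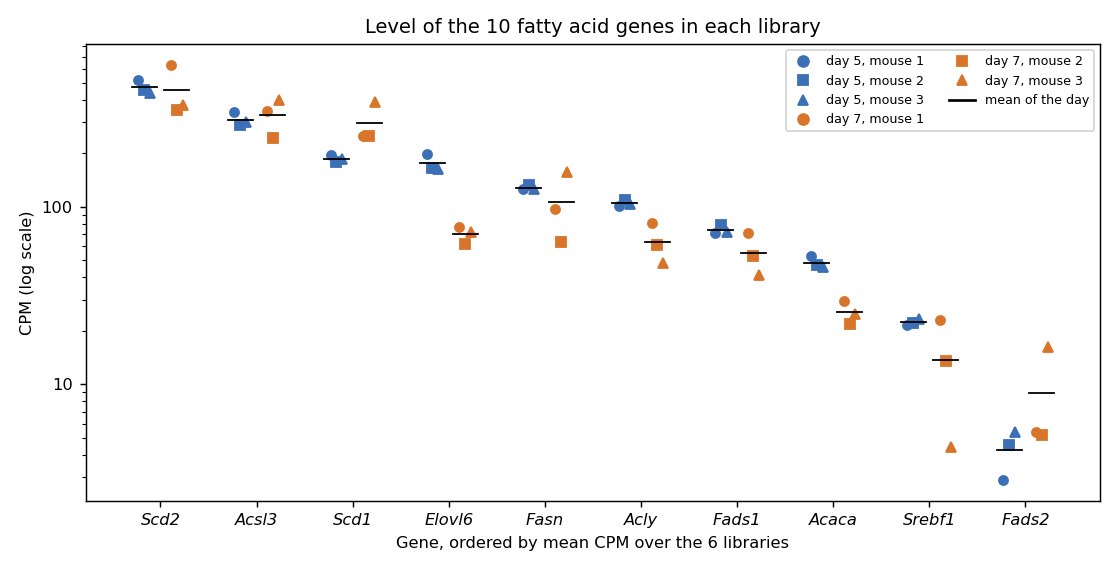
CPM of the 10 fatty acid genes (log axis) in each of the 6 libraries, with blue points for day 5, orange points for day 7, a shape for each mouse and a line at the mean of each day. The day 5 points lie close together for most genes, while at day 7 *Srebf1* spans 4.41 to 23.0 CPM and *Fasn* 63.2 to 157 CPM.

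Early in the pathway, both enzymes before fatty acid synthase were lower at day 7. *Acly* (ENSMUSG00000020917, GRCm39 chromosome 11 from 100367165 to 100440756, minus strand) encodes ATP citrate lyase, which makes cytosolic acetyl-CoA. Its level was 101, 108 and 104 CPM at day 5 and 81.3, 60.8 and 48.0 CPM at day 7, in mice 1, 2 and 3. All 3 day 7 libraries lay below all day 5 libraries. The means were 104 ± 3.74 and 63.3 ± 16.8 CPM (SD, n = 3 libraries per day), a 1.64-fold lower level with a log2 fold change of -0.72 ± 0.21 (SE) and an adjusted p of 0.0342 in edgeR's test. The call was lost without the day 5 library of mouse 1, 2 or 3 (adjusted p = 0.114, 0.155 and 0.134) and without the day 7 library of mouse 2 (0.116). Without the day 7 library of mouse 3 the log2 fold change was -0.56, short of the minimum of 0.6.

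*Acaca* (ENSMUSG00000020532, chromosome 11 from 84020476 to 84292477, plus strand) encodes the cytosolic acetyl-CoA carboxylase of the committed step. Its day 5 level was 52.8, 46.7 and 45.8 CPM, and its day 7 level was 29.5, 21.9 and 24.97 CPM. The lowest day 5 library was above the highest day 7 library, and the 3 mice fell by similar amounts. The mean dropped from 48.4 ± 3.82 to 25.5 ± 3.85 CPM (SD, n = 3), a 1.90-fold lower level with a log2 fold change of -0.93 ± 0.23 and an adjusted p of 0.0105 (edgeR). The difference missed the threshold without the day 5 library of mouse 1, 2 or 3 (adjusted p = 0.0807, 0.0586 and 0.0548) or the day 7 library of mouse 2 (0.0579), with log2 fold changes of -0.97 to -0.82 in these 4 fits.

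*Fasn* (ENSMUSG00000025153, chromosome 11 from 120696672 to 120715995, minus strand) encodes fatty acid synthase, which builds palmitate. It measured 125, 133 and 126 CPM at day 5 and 97.0, 63.2 and 157 CPM at day 7. The day 5 libraries were nearly level, and the day 7 libraries lay on both sides of them, with mouse 3 above and mice 1 and 2 below. The means were 128 ± 3.95 and 106 ± 47.3 CPM (SD, n = 3), and the log2 fold change of -0.28 had a 95% interval from -0.81 to 0.25 and an adjusted p of 0.511 (edgeR). Without the day 7 library of mouse 3 the log2 fold change was -0.68 with an adjusted p of 0.0138, past the threshold, so the call of *Fasn* turned on that library.

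*Elovl6* (ENSMUSG00000041220, chromosome 3 from 129326004 to 129432144, plus strand) encodes the elongase that lengthens palmitate to stearate. It showed 198, 165 and 164 CPM at day 5 and 76.7, 61.8 and 72.5 CPM at day 7. Every day 7 library was below every day 5 library by a wide gap. The mean went from 175 ± 19.2 to 70.3 ± 7.68 CPM (SD, n = 3), a 2.50-fold lower level, with a log2 fold change of -1.32 ± 0.19, a 95% interval from -1.73 to -0.91 and an adjusted p of 0.000206 (edgeR). Its log2 fold change stayed between -1.39 and -1.23 when any 1 library was left out. It was the gene of the 10 with the largest absolute log2 fold change.

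RefSeq windows around a transcription start of the genes that were lower at day 7, and of *Fasn* between them in the pathway, are shown because SREBP proteins act on lipogenic promoters through sterol regulatory elements and E-boxes, together with factors that bind CCAAT and GC boxes. They hold 300 bases each on GRCm38.p6, with 250 bases before a start and 50 bases from it on, printed 5′ to 3′ on the gene's strand, and capitals mark any match on either strand to the sterol regulatory element TCACNCCAC, the E-box CACGTG, the box named for its letters CCAAT or the GC box GGGCGG. They lie at chr3:129532136-129532435 (*Elovl6*, plus strand), chr11:84195188-84195487 (*Acaca*, plus strand), chr11:100527951-100528250 (*Acly*, minus strand) and chr11:120824498-120824797 (*Fasn*, minus strand). The starts of *Elovl6* and *Acly* are the 5′ ends of the RefSeq genes, that of *Fasn* lies 619 bases inside the gene, and that of *Acaca* is an internal start 65803 bases inside it.
Elovl6: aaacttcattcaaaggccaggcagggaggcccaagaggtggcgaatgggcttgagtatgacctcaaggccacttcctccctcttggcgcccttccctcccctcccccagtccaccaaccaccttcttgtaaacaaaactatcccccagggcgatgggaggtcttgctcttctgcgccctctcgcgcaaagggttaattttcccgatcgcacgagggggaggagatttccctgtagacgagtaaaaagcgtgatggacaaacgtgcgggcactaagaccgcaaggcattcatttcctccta
Acaca: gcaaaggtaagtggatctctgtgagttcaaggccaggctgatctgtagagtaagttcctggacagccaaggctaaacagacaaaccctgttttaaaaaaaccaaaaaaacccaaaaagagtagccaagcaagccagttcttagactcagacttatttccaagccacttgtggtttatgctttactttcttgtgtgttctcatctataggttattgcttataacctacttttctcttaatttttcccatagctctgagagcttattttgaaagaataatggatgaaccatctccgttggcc
Acly: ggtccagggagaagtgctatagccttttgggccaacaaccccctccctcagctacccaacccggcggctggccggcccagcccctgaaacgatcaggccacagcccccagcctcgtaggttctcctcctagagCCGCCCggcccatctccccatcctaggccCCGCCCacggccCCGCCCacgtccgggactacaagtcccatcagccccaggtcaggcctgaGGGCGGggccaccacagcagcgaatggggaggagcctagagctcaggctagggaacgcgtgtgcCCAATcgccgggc
Fasn: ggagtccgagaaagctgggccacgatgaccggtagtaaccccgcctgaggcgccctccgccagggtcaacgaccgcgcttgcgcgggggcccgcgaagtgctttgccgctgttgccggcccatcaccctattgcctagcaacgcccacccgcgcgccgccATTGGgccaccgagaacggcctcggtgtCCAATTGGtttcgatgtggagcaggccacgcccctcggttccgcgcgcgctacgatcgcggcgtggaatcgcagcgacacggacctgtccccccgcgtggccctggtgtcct

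The *Elovl6* and *Acaca* windows held no match to any of the 4 motifs. The *Acly* window held 1 CCAAT box and 4 GC boxes. The *Fasn* window held 3 CCAAT boxes, of which 2 overlap each other on opposite strands. RefSeq windows were matched for 7 of the 10 genes, 9 windows in all because *Srebf1* has 3, and *Scd1*, *Scd2* and *Fads1* were not matched. The 3 *Srebf1* windows surround starts that lie 13715, 3559 and 1605 bases inside the RefSeq gene. The starts of *Acsl3* and *Fads2* are the 5′ ends of their RefSeq genes. None of the 9 windows held TCACNCCAC or CACGTG, which stand in 1.24% and 7.15% of all 32851 RefSeq promoter windows of the same length. CCAAT stands in 37.4% and GGGCGG in 35.7% of them. A window without a match says only that these letters are not within it.

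The stearoyl-CoA desaturases place the first double bond in palmitate and stearate, and the mouse carries several copies of the gene side by side. *Scd2* (ENSMUSG00000025203, chromosome 19 from 44281613 to 44295303, plus strand) is the copy best known from brain and from newborn skin and liver. It had 516, 457 and 437 CPM at day 5 and 630, 349 and 374 CPM at day 7. The day 7 libraries lay on both sides of day 5, with mouse 1 highest of all 6 libraries. The mean was 470 ± 40.8 CPM at day 5 and 451 ± 155 CPM at day 7 (SD, n = 3), with a log2 fold change of -0.06 (95% interval -0.52 to 0.40, adjusted p = 0.911, edgeR).

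*Scd1* (ENSMUSG00000037071, chromosome 19 from 44382894 to 44399154, minus strand) is the main copy of adult liver, fat and sebaceous gland. Its level was 194, 179 and 185 CPM at day 5 and 251, 249 and 386 CPM at day 7. All day 7 libraries were above all day 5 libraries, and that of mouse 3 stood above the other two. The mean rose from 186 ± 7.80 to 295 ± 78.6 CPM (SD, n = 3), 1.59-fold, with a log2 fold change of 0.67 ± 0.20 and an adjusted p of 0.0400 (edgeR). The call was lost under 3 other scalings, by upper quartile (0.63, adjusted p = 0.0537), by library totals (0.57, 0.0746) and by totals without the most abundant gene ID (0.63, 0.0527), and with counts thinned to the smallest library (0.65, 0.0592). It was also lost without the day 5 library of mouse 1, 2 or 3 (adjusted p = 0.133, 0.187 and 0.167) and without the day 7 library of mouse 3, where the log2 fold change was 0.43.

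The balance between the desaturase copies, which does not depend on the scaling, was compared as the ratio of *Scd1* to *Scd2* reads. The ratio was 0.377, 0.391 and 0.424 at day 5 and 0.399, 0.713 and 1.03 at day 7, for mice 1, 2 and 3. Mouse 1 at day 7 lay within the day 5 range, and mice 2 and 3 lay above it. The mean log2 ratio was higher at day 7 by 0.74, which is 1.67-fold, and the two-sided exact permutation test over libraries gave p = 0.2, where 0.1 is the smallest p that 3 against 3 libraries allow. Within mice the log2 ratio differed by 0.08, 0.87 and 1.28, and an exact sign-flip test gave p = 0.25, the smallest it can give with 3 mice. Leaving out 1 library gave differences of 0.43, without the day 7 library of mouse 3, to 1.11, without that of mouse 1. *Scd1* and *Scd2* together held 43.7%, 42.9% and 42.5% of the summed CPM of the 10 genes at day 5 and 54.8%, 53.4% and 50.0% at day 7.

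*Fads1* and *Fads2* encode the front-end desaturases that act in turn on dietary polyunsaturated fatty acids, *Fads2* at the entry step and *Fads1* after the chain has been lengthened. *Fads1* (ENSMUSG00000010663, chromosome 19 from 10160167 to 10174241, plus strand) had 71.4, 79.3 and 71.7 CPM at day 5 and 71.3, 52.4 and 41.1 CPM at day 7. Mouse 1 was almost level between the days, and mice 2 and 3 were lower at day 7. The means were 74.1 ± 4.51 and 54.96 ± 15.3 CPM (SD, n = 3), with a log2 fold change of -0.43 (95% interval -0.89 to 0.04, adjusted p = 0.235, edgeR). Without the day 7 library of mouse 1 it was -0.66 with an adjusted p of 0.0419, past the threshold.

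*Fads2* (ENSMUSG00000024665, chromosome 19 from 10038130 to 10079203, minus strand) was the least counted of the 10, with 31 reads at day 5 and 62 at day 7 in all. It measured 2.89, 4.52 and 5.40 CPM at day 5 and 5.37, 5.21 and 16.2 CPM at day 7. Mice 1 and 2 at day 7 lay within the day 5 range, and mouse 3 lay far above it. The mean was 4.27 ± 1.28 CPM at day 5 and 8.91 ± 6.27 CPM at day 7 (SD, n = 3), with a log2 fold change of 1.00 ± 0.47 and an adjusted p of 0.193 (edgeR). Its 95% interval was wide, from 0.00 to 1.99, and without the day 7 library of mouse 3 the log2 fold change was 0.30. The ratio of *Fads1* to *Fads2* reads was 24.7, 17.6 and 13.3 at day 5 and 13.3, 10.1 and 2.55 at day 7. Its mean was 2.57-fold lower at day 7, a log2 difference of -1.36, and the ratio was lower at day 7 in each mouse, by log2 values of -0.90, -0.80 and -2.38. The exact permutation test gave p = 0.2 and the exact sign-flip test p = 0.25. The ratios of mouse 3 at day 5 and mouse 1 at day 7 were nearly tied, at 13.27 and 13.29. With 0.5 counts added to each count, the log2 difference was -1.32 and the permutation test gave p = 0.1, the smallest it can give. Without the day 7 library of mouse 3 the log2 difference was -0.63.

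*Acsl3* (ENSMUSG00000032883, chromosome 1 from 78635537 to 78685461, plus strand) encodes a long-chain acyl-CoA synthetase of the endoplasmic reticulum and of lipid droplets, which activates fatty acids for use in lipids. It had 342, 287 and 301 CPM at day 5 and 344, 243 and 398 CPM at day 7. The days overlapped, and day 7 held both the lowest and the highest library. The means were 310 ± 28.5 and 328 ± 79.1 CPM (SD, n = 3), with a log2 fold change of 0.08 (95% interval -0.34 to 0.51, adjusted p = 0.844, edgeR). With library totals in place of TMM the value was -0.02.

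*Srebf1* (ENSMUSG00000020538, chromosome 11 from 60089913 to 60113407, minus strand) encodes the transcription factors SREBP-1a and SREBP-1c, which differ at their 5′ ends and cannot be separated by reads from a shared 3′ end. It showed 21.4, 22.1 and 23.4 CPM at day 5 and 23.0, 13.5 and 4.41 CPM at day 7. The day 5 libraries were nearly level, while at day 7 mouse 1 stood at the day 5 level, mouse 2 below it and mouse 3 lowest. The mean was 22.3 ± 1.00 CPM at day 5 and 13.7 ± 9.30 CPM at day 7 (SD, n = 3), with a log2 fold change of -0.68 (95% interval -1.46 to 0.10) and an adjusted p of 0.263 (edgeR). With the mouse as a block the log2 fold change was -0.82 with an adjusted p of 0.0437, past the threshold, and without the day 7 library of mouse 1 it was -1.25 with an adjusted p of 0.0196. Over all alternatives its adjusted p ranged from 0.0196 to 0.686. The last 500 bases of the *Srebf1* transcript that Ensembl marks as canonical shared a run of 112 bases with *Rai1*, which lies on the opposite strand there. Other annotated ends of the gene were not compared. Whether strand was used in the counting is not given in the sources used here. *Acaca*, *Acly*, *Acsl3*, *Elovl6* and *Fads1* also overlap exons of a gene on the opposite strand, and *Acsl3*, *Scd2* and *Srebf1* overlap one on their own strand. The last 500 bases of the canonical *Fasn* transcript shared a run of 25 bases with *Gm45053*.

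**Figure D2:**
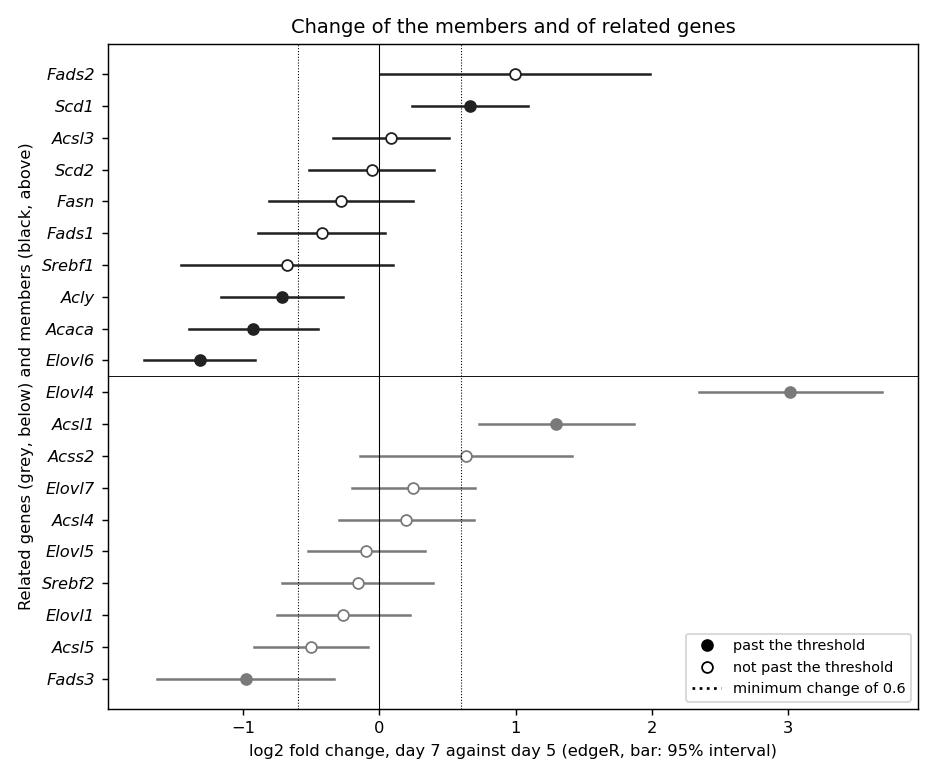
Fitted log2 fold change of day 7 against day 5 with its 95% interval for the 10 fatty acid genes (black, above) and for related genes (grey, below), with filled points for genes past the threshold and dotted lines at a change of 0.6 in either direction. *Elovl6* lies lowest at -1.32 and *Elovl4* highest at 3.02, and the intervals of *Srebf1* and *Fads2* are the widest among the 10.

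Within the mice, the genes fell into groups by their direction. *Elovl6*, *Acaca*, *Acly* and *Fads1* were lower at day 7 in all 3 mice, *Scd1* and *Fads2* were higher in all 3, and the other 4 were of mixed direction. In mouse 1, though, *Fads1* was almost level, at 71.36 CPM at day 5 and 71.34 CPM at day 7. The log2 ratio of day 7 to day 5 CPM was -1.36, -1.42 and -1.17 for *Elovl6* and -0.84, -1.09 and -0.87 for *Acaca*, in mice 1, 2 and 3. For *Acly* it was -0.31, -0.84 and -1.11, and for *Srebf1* it was 0.10, -0.71 and -2.41. *Elovl6* and *Acaca* thus differed little between mice, and *Srebf1* differed most. The mouse 3 value of *Srebf1* rests on 65 reads at day 5 and 9 at day 7. For *Scd1* it was 0.37, 0.48 and 1.06, and for *Fasn* it was -0.37, -1.07 and 0.31. Mouse 3 had the highest day 7 level of *Scd1*, *Fasn*, *Fads2* and *Acsl3* and the lowest of *Acly*, *Fads1* and *Srebf1*. Mouse 2 had the lowest day 7 level of the other 7 genes, and mouse 1 had the highest level of the other 6. The 3 mice therefore did not share 1 direction across the 10 genes, with 5, 2 and 4 genes higher at day 7 in mice 1, 2 and 3. Summed over the 10 genes, the day 5 libraries held 1624, 1481 and 1463 CPM and the day 7 libraries 1610, 1120 and 1523 CPM, and the days overlapped.

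**Figure D3:**
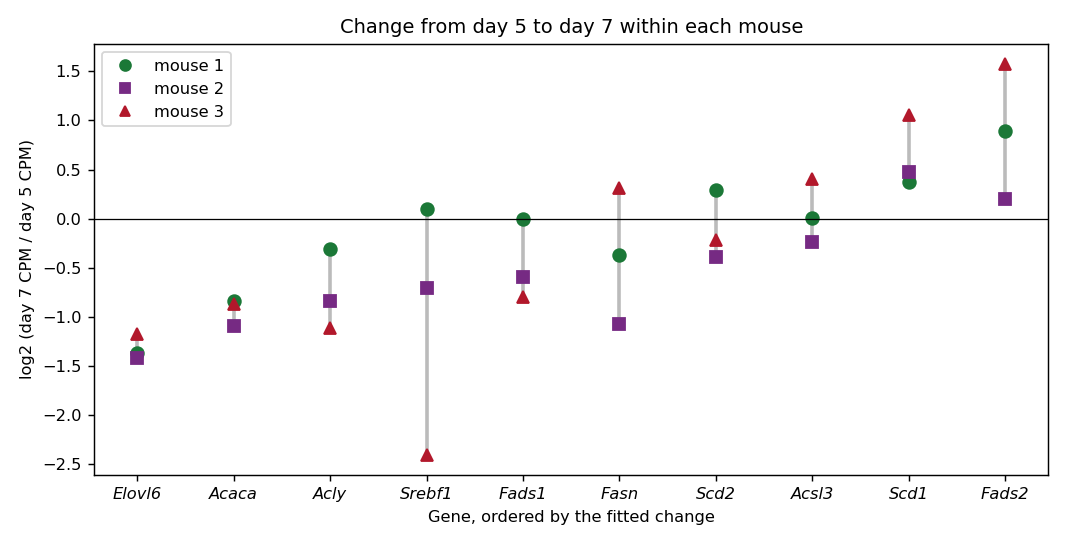
Log2 ratio of day 7 to day 5 CPM of the 10 genes within mouse 1 (circles), mouse 2 (squares) and mouse 3 (triangles), ordered by the fitted change, with a grey bar from the lowest to the highest mouse. *Elovl6* and *Acaca* lie below 0 in every mouse with short bars, and *Srebf1* runs from 0.10 to -2.41.

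In the order of their 3′ read levels at day 5, *Scd2* was highest, followed by *Acsl3*, *Scd1*, *Elovl6*, *Fasn*, *Acly*, *Fads1*, *Acaca*, *Srebf1* and *Fads2*. The libraries of 8 of the 9 neighbouring pairs did not overlap, and those of *Scd1* and *Elovl6* did. At day 7 the order was *Scd2*, *Acsl3*, *Scd1*, *Fasn*, *Elovl6*, *Acly*, *Fads1*, *Acaca*, *Srebf1* and *Fads2*, so *Elovl6* had moved below *Fasn* by their means. Only 2 of the 9 neighbouring pairs were then apart, *Scd1* from *Fasn* and *Fads1* from *Acaca*. These are read levels per transcript end within a day.

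Across the 6 libraries the levels of *Acaca* and *Elovl6* moved most closely together, with a Pearson r of 0.991 between their log2 CPM, followed by *Acly* with *Fads1* (0.965) and *Fads1* with *Srebf1* (0.954). *Scd1* moved against *Acly* (-0.950), *Fads1* (-0.908) and *Srebf1* (-0.904). These values describe 6 libraries that share their 2 days and their scaling, and they carry no test.

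The nearest relatives of the 10 genes included 3 past the threshold among 13 tested, 23.1% against 12.0% of all genes tested. *Elovl4*, the elongase of very long chains in skin, retina and brain, had 7.42, 6.03 and 3.60 CPM at day 5 and 45.3, 58.0 and 33.8 CPM at day 7. It rose with a log2 fold change of 3.02 ± 0.32 (adjusted p = 6.7e-06, edgeR), while *Elovl6* of the same family fell. *Acsl1*, a long-chain acyl-CoA synthetase of oxidative and fat-storing tissues, had 15.3, 24.1 and 19.5 CPM at day 5 and 46.03, 63.5 and 33.8 CPM at day 7, and rose by 1.30 ± 0.27 on the log2 scale (adjusted p = 0.00387). Both held in each fit without 1 library. *Fads3*, a desaturase of the sphingoid bases of ceramides, had 37.1, 31.6 and 33.9 CPM at day 5 and 26.8, 15.6 and 8.81 CPM at day 7. It fell with a log2 fold change of -0.98 ± 0.31 (adjusted p = 0.0450), and missed the threshold without the day 5 library of mouse 1, 2 or 3 (adjusted p = 0.174, 0.133 and 0.145) or the day 7 library of mouse 2 or 3 (0.165 and 0.0501), and with DESeq2 (0.0569), both stricter count filters (0.0697 and 0.0693) and thinned counts (0.107).

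Other relatives did not pass. The log2 fold changes were -0.27 for *Elovl1*, -0.10 for *Elovl5*, 0.25 for *Elovl7*, 0.20 for *Acsl4* and -0.50 for *Acsl5*, with adjusted p values of 0.504, 0.820, 0.497, 0.645 and 0.109. *Srebf2*, the paralog of *Srebf1* that mainly drives cholesterol genes, had 187, 186 and 218 CPM at day 5 and 270.4, 158 and 98.9 CPM at day 7, and its log2 fold change was -0.16 (adjusted p = 0.764). As for *Srebf1*, its day 7 level was highest in mouse 1 and lowest in mouse 3. *Acss2*, which makes acetyl-CoA from acetate, had a log2 fold change of 0.64 (adjusted p = 0.292), and passed without the day 7 library of mouse 3 (0.95, adjusted p = 0.0427). *Acacb*, the acetyl-CoA carboxylase at the mitochondrion, had 1 read at day 5 and 2 at day 7, and *Scd3* had 3 at each day. *Scd4* and *Acsl6* had no read at day 5 and 2 and 1 at day 7, and *Elovl2* and *Elovl3* had none, so no fold is given for these 6.

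Of the wider set of 126 other fatty acid pathway genes, the relatives included, 116 were tested and 17 passed, 14.7% against 12.0% of all genes tested. Of them 14 were higher and 3 lower at day 7, and the median log2 fold change of the tested genes was 0.04. With the mouse as a block 27 passed, 21 higher and 6 lower. Leaving out the day 5 library of mouse 1, 2 or 3 left 7, 6 and 6, and leaving out the day 7 library of mouse 1, 2 or 3 left 25, 8 and 21. *Elovl4*, *Acsl1*, *Mgll* and *Vldlr* were the 4 of the 17 that passed in all 6 of those fits. With glmTreat 5 of the 17 passed, *Elovl4*, *Mgll*, *Dgat2*, *Vldlr* and *Fabp4*.

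Supply of acetyl-CoA and NADPH was covered by 11 genes, with 1 lower, 9.09% against 4.82% of all genes tested. Their median log2 fold change was -0.11. *Pgd*, an NADPH-producing enzyme of the pentose phosphate pathway, had 280.5, 325 and 286 CPM at day 5 and 178, 145 and 187 CPM at day 7. It fell by 0.80 on the log2 scale (adjusted p = 0.00807, edgeR), and missed the threshold without the day 5 library of mouse 2 or 3 (0.0822 and 0.0506). The 10 partners of the elongases and desaturases had a median log2 fold change of 0.07. Of them 1 was higher, 10% against 7.22% of all genes tested. This was *Hacd4*, a dehydratase of the elongation cycle, with a log2 fold change of 1.02 (adjusted p = 0.0208), which missed without the day 5 library of mouse 1 or 3 (0.143 and 0.117) or the day 7 library of mouse 2 (0.0636).

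SREBP control and lipogenic transcription held 24 tested genes of 25, with 1 higher, 4.17% against 7.22% of all genes tested. Their median log2 fold change was -0.06. *Insig2*, which holds the SREBP precursors back in the endoplasmic reticulum, had 51.6, 41.2 and 45.0 CPM at day 5 and 80.5, 108 and 60.7 CPM at day 7. It rose by 0.86 on the log2 scale (adjusted p = 0.0191, edgeR), and missed without the day 5 library of mouse 1, 2 or 3 (0.0625, 0.134 and 0.110) or the day 7 library of mouse 2 (0.126). Mitochondrial fatty acid synthesis, which serves lipoic acid, held 8 genes with a median log2 fold change of -0.17. It had 1 gene lower, 12.5% against 4.82% of all genes tested. Its acyl carrier protein gene *Ndufab1* had a log2 fold change of -0.72 (adjusted p = 0.0429), and missed without the day 5 library of mouse 1, 2 or 3 (0.158, 0.202 and 0.0945), the day 7 library of mouse 2 (0.0862) or that of mouse 3, where the log2 fold change was -0.51. It also missed with both stricter count filters (0.0549 and 0.0546) and thinned counts (0.116).

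Of 23 tested oxidation genes 2 were higher, 8.70% against 7.22% of all genes tested, with a median log2 fold change of 0.24. They were the acyl-CoA dehydrogenases *Acadl*, with a log2 fold change of 0.78 (adjusted p = 0.0172, edgeR) and *Acadm*, with 0.79 (0.0238). *Acadl* missed without the day 5 library of mouse 1, 2 or 3 (0.117, 0.113 and 0.0712) or the day 7 library of mouse 2 (0.0795), and *Acadm* without the day 5 library of mouse 2 or 3 (0.135 and 0.172) or the day 7 library of mouse 2 (0.0626).

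Glycerolipid synthesis and lipid droplets held 19 genes, with 4 higher, 21.1% against 7.22% of all genes tested, and a median log2 fold change of 0.23. *Mgll*, the lipase of monoglycerides, had 0.413, 1.00 and 0.360 CPM at day 5, below the floor, and 10.4, 10.8 and 17.6 CPM at day 7, and rose (log2 fold change 4.39, adjusted p = 2.9e-05, edgeR), a size that rests on 4 reads at day 5 against 94 at day 7. *Dgat2*, which closes triglyceride synthesis, had a log2 fold change of 1.96 (adjusted p = 0.0055), with only 18 reads at day 5 and 76 at day 7. *Agpat4*, an acyltransferase of phospholipid precursors, was at 1.74 (0.0100), with 24 and 84 reads. *Plin3*, a lipid droplet coat protein, was at 0.73 (0.0273). Without the day 5 library of mouse 1 all 3 missed (0.0533, 0.0589 and 0.121), as they did without that of mouse 3 (0.0536, 0.0676 and 0.161) and without the day 7 library of mouse 2 (0.0507, 0.0674 and 0.114). Without the day 5 library of mouse 2, *Agpat4* and *Plin3* missed (0.0592 and 0.103). *Plin3* also missed with library totals (0.0589) and thinned counts (0.0724).

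Uptake and binding held 10 tested genes of 15, with 4 higher, 40% against 7.22% of all genes tested, and a median log2 fold change of 0.72. *Vldlr*, a receptor for triglyceride-rich lipoproteins, had 12.0, 17.1 and 13.7 CPM at day 5 and 56.8, 36.8 and 27.9 CPM at day 7, and rose by 1.52 on the log2 scale (adjusted p = 0.00190, edgeR). *Fabp4*, a fatty acid carrier of fat cells, macrophages and endothelium, had 195, 161 and 209 CPM at day 5 and 1806, 388 and 268 CPM at day 7. All day 7 libraries were above day 5, and mouse 1 stood far above the rest. Its log2 fold change of 2.12 (adjusted p = 0.00536) was 0.80 without the day 7 library of mouse 1, and it missed without the day 5 library of mouse 2 (0.0679), with DESeq2 (0.0687) and with robust edgeR (0.228). The fatty acid transport genes *Slc27a3* and *Slc27a4* had log2 fold changes of 1.37 (adjusted p = 0.0262) and 1.02 (0.0334). For *Slc27a3* the days overlapped, with 21.6 CPM in mouse 3 at day 5 and 19.9 CPM in mouse 1 at day 7. In mouse 2 *Slc27a4* was almost level, at 16.6 CPM at day 5 and 17.4 CPM at day 7. *Slc27a3* missed without the day 5 library of mouse 1 or 2 (0.145 and 0.169) or the day 7 library of mouse 2 or 3 (0.0591 and 0.105), and with robust edgeR (0.104), both stricter count filters (0.0610 and 0.0622) and thinned counts (0.0591). *Slc27a4* missed without the day 5 library of mouse 1, 2 or 3 (0.167, 0.0519 and 0.183) or the day 7 library of mouse 1 (0.0535), with DESeq2 (0.0517) and with thinned counts (0.0862).

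Cholesterol synthesis, the sister pathway under *Srebf2*, held 19 genes, with 2 lower, 10.5% against 4.82% of all genes tested. Their median log2 fold change was -0.38, beside -0.35 for the 10 fatty acid genes. *Ebp*, a sterol isomerase, had 101, 113 and 113 CPM at day 5 and 57.9, 56.9 and 69.0 CPM at day 7, and fell by 0.84 on the log2 scale (adjusted p = 0.00778, edgeR). *Lss*, lanosterol synthase, had 88.7, 79.8 and 87.2 CPM at day 5 and 64.4, 52.1 and 32.8 CPM at day 7, and fell by 0.77 on the log2 scale (adjusted p = 0.0364). *Ebp* missed without the day 5 library of mouse 2 or 3 (0.0650 and 0.0656). *Lss* missed without the day 5 library of mouse 1, 2 or 3 (0.146, 0.118 and 0.148), the day 7 library of mouse 2 (0.0979) or that of mouse 3, where the log2 fold change was -0.55, and with thinned counts (0.0564).

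**Figure D4:**
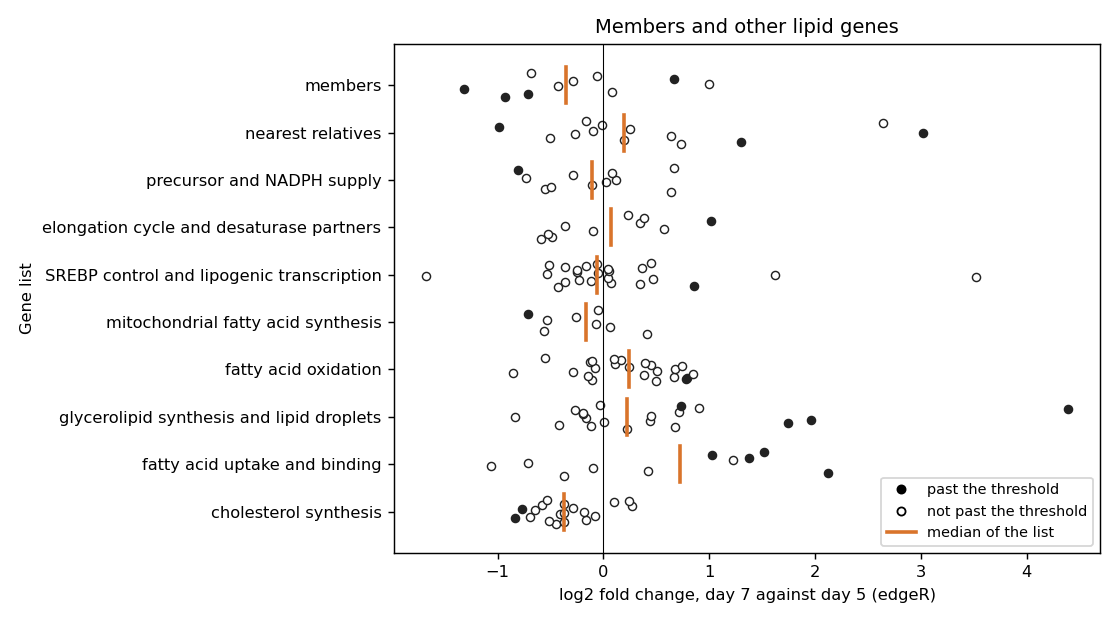
Log2 fold change of day 7 against day 5 for each tested gene of the 10 fatty acid genes (members) and of 9 related lists, with filled points for genes past the threshold and an orange bar at each list's median. The medians run from -0.38 for cholesterol synthesis and -0.35 for the 10 genes to 0.72 for uptake and binding.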

How the data were processed

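RNA of mSGOs from 3 mice at day 5 and day 7 was converted to QuantSeq 3′ libraries. The authors aligned the reads to GRCm39, and the deposited values are raw whole-number counts of reads for each Ensembl ID. The aligner, annotation, strand setting and treatment of multiply aligned reads are not given in the sources used here. The submitters' processing notes name edgeR. The 5 entries per file that name no gene were left out.

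IDs were named by GENCODE vM39, which matched 43465 of 47643 (91.2%). As in the study's methods, a gene needed 1 count or more in 2 libraries or more, and all such genes were fitted together in edgeR 4.0.16 (R 4.3.3) with TMM scaling, the quasi-likelihood test, day as the only term and Benjamini-Hochberg adjustment over all 15792 genes. Of these, 1901 passed, 1140 higher and 761 lower at day 7. Levels are CPM of the scaled totals, and marker sums and floors are CPM of the plain totals. Intervals are 95% intervals. Log2 ratios of 2 genes were compared by exact permutation over libraries. The libraries are separate samples of 3 mice. Every pair within a day differed by more than counting noise, with a chi-square of 1.99 or more for each degree of freedom.

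The titles give the same mouse number at both days, so the libraries are paired. Deviations from the day means correlated at 0.14, -0.10 and 0.16 for mice 1, 2 and 3 over the 8172 genes averaging 10 CPM or more. A fit that blocked on the mouse was an alternative, as were other scalings, filters and tests (DESeq2 1.42.0, limma 3.58.1) and each fit without 1 library.

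The 10 genes and the lists were chosen with earlier results of these data known. Named were the 10 genes, their nearest relatives and, from each other list, up to 4 genes past the threshold in each direction with the smallest p. For *Fasn*, *Scd1* and *Srebf1* the 3 most alike genes averaging 20 CPM or more were named. The edgeR fit was also run on simulated counts. There each gene had the same spread at both days, unlike the wider spread at day 7 in these data.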

Additional observations from a re-analysis of the deposited data

How the results depend on the processing

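Each result was recomputed under 13 alternatives with all libraries and in 6 fits without 1 library. Among the 10 fatty acid genes 4 passed the threshold, and 3 to 5 did under the alternatives with all libraries apart from edgeR's glmTreat, which tests against the minimum change itself and left 1 (*Elovl6*). Without 1 library 1 to 6 passed. glmTreat left 622 of all genes, where 1901 had passed, and 5 of the other pathway genes, where 17 had passed, and without 1 library these counts ran from 797 to 2576 and from 6 to 25. With the mouse as a replicate block, 5 of the 10 genes, 27 of the other pathway genes and 2340 of all genes passed, and of the 10 genes and the named genes it changed the call of *Srebf1* only. Plain library totals gave 950 higher of 1958 genes past the threshold, against 1140 of 1901, and moved the median of all genes from -0.01 to -0.10. *Acsl3* was -0.017 with them and -0.080 to 0.26 without 1 library. Signs also changed without 1 library for *Scd2* (-0.38 to 0.10), *Elovl5* (-0.30 to 0.051) and *Srebf2* (-0.61 to 0.12). The cause was not tested. glmTreat also ended the calls of *Acaca* (adjusted p = 0.247), *Acly* (0.547) and *Scd1* (0.609). The log2 ratio of *Scd1* to *Scd2* ran from 0.43 to 1.11 and that of *Fads1* to *Fads2* from -1.82 to -0.63 without 1 library.

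Precision was limited by 3 libraries per day and by the wider spread at day 7. *Fads2* and *Srebf1*, with 31 and 161 reads over the day 5 libraries, are the genes for which depth limits the precision most. Whether reads of overlapping genes on opposite strands were separated is not known.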

Other observations

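The genes whose log2 CPM followed that of *Fasn* most closely over the 6 libraries were *Spen*, a transcriptional repressor (Pearson r = 0.985), *Edf1*, a coactivator (0.983), and *Atp5mc1*, a subunit of the mitochondrial ATP synthase (0.983), among 6086 genes compared. *Spen* had 66.8, 69.8 and 67.0 CPM at day 5 and 62.5, 53.1 and 70.0 CPM at day 7, a narrower range than that of *Fasn*. Those most like *Scd1* were *Hook3*, a microtubule adaptor (0.996), *Tle5*, a member of the Groucho family (0.993), and *Zfp771*, a zinc finger gene (0.992). *Tle5* had 151, 142 and 146 CPM at day 5 and 179.5, 168 and 222 CPM at day 7. Those most like *Srebf1* were *Dusp7*, a phosphatase of MAP kinases (0.996), *Akt1*, a kinase of insulin signalling (0.994), and *Cs*, citrate synthase (0.994), among 6087 genes. *Dusp7* had 549.8, 587 and 567 CPM at day 5 and 563, 318 and 128 CPM at day 7, in the same order of the mice at day 7 as *Srebf1*. These likenesses were picked as the highest among all genes compared, over 6 libraries that share 2 days and a scaling, and carry no test.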
